A study of Drosophila melanogaster with 15 samples.

Results

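The small heat shock proteins and chaperones of the fly wing disc were followed through 8 genes: Hsp22, Hsp23, Hsp26, Hsp27, Hsp67Bc, Hsp68, Hsp83 and the cochaperone gene stv. A gene was described where the array annotation gave it a probe set under its symbol alone. This held for 4 of the 8 (Hsp26, Hsp27, Hsp68 and stv), among 11982 genes with such a probe set. Hsp22 shared both of its probe sets with CG4456, and they are given apart. Hsp23, Hsp67Bc and Hsp83 had no probe set under their symbols and were not analysed here.

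Expression was measured on 1-colour Affymetrix arrays in Drosophila melanogaster imaginal discs of the wing, epithelial sheets in the larva from which the adult wing and notum grow. Each of 5 groups had 3 arrays. All larvae were of the w1118 background, grown at 25 °C, carried w-, and had elav-GAL80 and Rn-GAL4 over wild-type chromosomes. The avl-RNAi larvae carried UAS Avl RNAi on the Rn-GAL4 chromosome, and the control larvae did not. Controls were dissected 92 or 116 h after egg laying, and avl-RNAi larvae at these ages or at 168 h, all in the third instar per the labels. The labels call the avl-RNAi discs neoplastic. avl is now named Syx7 and encodes a syntaxin of the early endosome. Rn-GAL4 drives the RNAi only where rotund is expressed, so a whole disc mixes cells with and without it, and elav-GAL80 blocks GAL4 in neurons. No 168 h control was analysed here, so age and genotype cannot be told apart in the comparison of 168 h avl-RNAi discs with 116 h controls. Syx7 had no probe set of its own, so the knockdown could not be checked.

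Small heat shock proteins share an alpha-crystallin domain and hold unfolding proteins without using ATP. HSP70 proteins such as Hsp68 then refold or hand over such clients in ATP cycles, assisted by J-domain proteins and by BAG-domain cochaperones such as the product of stv (starvin). Heat shock factor (Hsf) induces many of these genes on stress. In flies the small heat shock genes of the cluster that holds Hsp26 and Hsp27 are also expressed in normal development, and ecdysone, the steroid that times moulting, induces several of them in cultured cells.

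Values are log2 expression values as deposited, from 2.81 to 14.51 over all arrays and probe sets. Every array had a mean of 6.01 and a median between 4.74 and 4.79. The wing disc genes nub and vg lay between 10.31 and 11.24 and between 9.0 and 10.35. Markers of other tissues varied. The mean of 20 gut genes was 4.98 in control 92 h replicate 3 against 6.6 and 6.59 in the other two, and 6.43 in control 116 h replicate 2 against 4.91 and 4.81. In avl-RNAi discs its range was 5.88 to 6.73 (92 h), 5.1 to 5.25 (116 h) and 4.63 to 4.74 (168 h). The mean of 9 muscle genes fell from 7.98 ± 0.24 to 6.39 ± 0.47 between the 92 h and 116 h controls, and went from 8.68 ± 0.28 through 7.48 ± 0.33 to 5.45 ± 0.18 over the 3 ages of avl-RNAi discs (SD, n = 3). The mean of 14 disc genes was lowest in avl-RNAi discs at 116 h, at 8.02 ± 0.17, and highest in control discs at 116 h, at 8.76 ± 0.039 (SD, n = 3). In whole discs, fewer cells of a type and less RNA per cell cannot be told apart.

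Hsp26 and Hsp27 fell in avl-RNAi discs at 116 h, stv rose, and Hsp68 did not pass the test. The 2 small heat shock genes rose with age in control discs, while stv fell. By 168 h the avl-RNAi discs had moved back towards the 116 h controls without reaching them. At 92 h Hsp26 alone of the 4 was called. A gene was called at an adjusted p under 0.05 by limma over all 11982 genes, and each difference below is on the log2 scale, with its standard error.

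**Figure D1:**
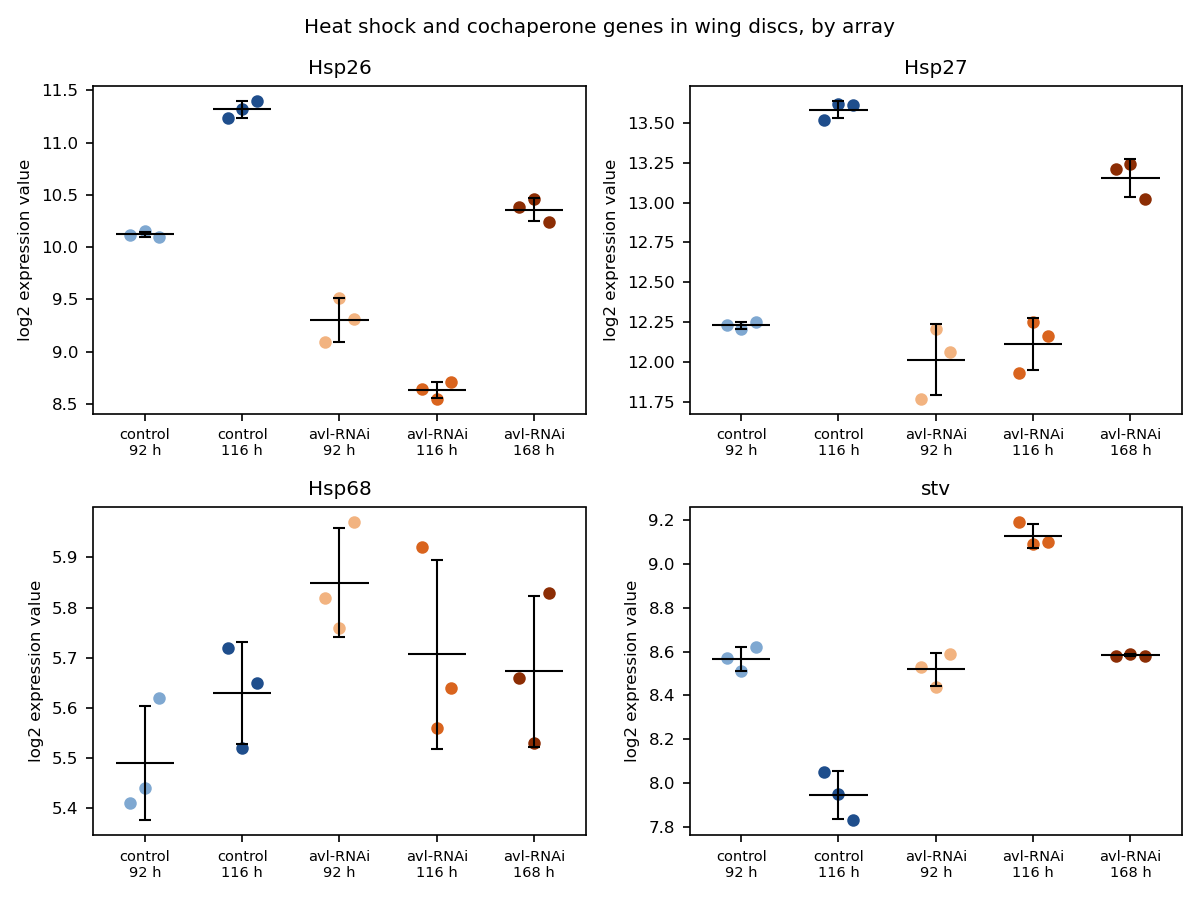
Log2 expression value of Hsp26, Hsp27, Hsp68 and stv on each array (points, 3 per group), with the mean (line) and SD (bar) of the 5 groups; each panel has its own axis. Hsp26 ran from 8.55 on the lowest avl-RNAi 116 h array to 11.4 on the highest control 116 h array, and stv from 7.83 on a control 116 h array to 9.19 on an avl-RNAi 116 h array.

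Hsp26 encodes a small heat shock protein. Its control arrays read 10.12, 10.15 and 10.1 (92 h) and 11.24, 11.32 and 11.4 (116 h). With avl-RNAi the arrays read 9.09, 9.51 and 9.31 (92 h), 8.64, 8.55 and 8.71 (116 h) and 10.38, 10.46 and 10.24 (168 h). No 2 of these groups overlapped. From high to low the order was control 116 h, avl-RNAi 168 h, control 92 h, avl-RNAi 92 h and avl-RNAi 116 h. Only the step from avl-RNAi 168 h to control 92 h in that order was not tested.

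Already at 92 h, Hsp26 was 0.82 ± 0.091 lower in avl-RNAi discs on the log2 scale (1.77-fold, limma adjusted p = 0.000137). Across all genes, 20 had a lower difference at that age. At 116 h the difference was -2.69 ± 0.091, or 6.44-fold lower (limma adjusted p = 1.39e-10), with a 95% interval of -2.88 to -2.49, and 16 genes had a lower one. The change of the difference between the ages was itself called, at -1.87 ± 0.13 (limma adjusted p = 3.58e-07). Hsp26 rose by 1.19 ± 0.091 in control discs from 92 to 116 h (limma adjusted p = 5.24e-07), and fell by 0.67 ± 0.091 in avl-RNAi discs over the same hours (limma adjusted p = 5.86e-05). The avl-RNAi discs at 116 h therefore lay below even the younger controls, by 1.49 ± 0.091 (limma adjusted p = 4.5e-08). From 116 to 168 h Hsp26 rose by 1.72 ± 0.091 in avl-RNAi discs (limma adjusted p = 3.1e-08), and it was still 0.96 ± 0.091 below the 116 h controls (limma adjusted p = 4.16e-06).

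Hsp27 encodes another small heat shock protein and was among the brightest features, with its probe set at or above the 98.2 percentile of all probe sets on every array. Its control arrays read 12.23, 12.21 and 12.25 (92 h) and 13.52, 13.62 and 13.61 (116 h). With avl-RNAi the arrays read 11.77, 12.21 and 12.06 (92 h), 11.93, 12.25 and 12.16 (116 h) and 13.21, 13.24 and 13.02 (168 h). The 116 h controls stood highest and the 168 h avl-RNAi discs next, and neither overlapped another group. The other 3 groups had means of 12.23, 12.11 and 12.02 and overlapped.

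The Hsp27 difference at 92 h, -0.21 ± 0.10, was not called (limma adjusted p = 0.317, 95% interval -0.439 to 0.0092). At 116 h Hsp27 was 1.47 ± 0.10 lower in avl-RNAi discs, or 2.77-fold (limma adjusted p = 1.48e-07), and 86 genes had a lower difference. The change between ages was -1.25 ± 0.15 (limma adjusted p = 5.17e-05). It came with a rise of 1.35 ± 0.10 in control discs from 92 to 116 h (limma adjusted p = 5.6e-07) and a difference of 0.097 ± 0.10 in avl-RNAi discs that was not called (limma adjusted p = 0.529, 95% interval -0.127 to 0.321). Avl-RNAi discs at 116 h were not called against the younger controls, at -0.12 ± 0.10 (limma adjusted p = 0.439, 95% interval -0.341 to 0.106). From 116 to 168 h Hsp27 rose by 1.04 ± 0.10 in avl-RNAi discs (limma adjusted p = 7.68e-06), and it stayed 0.43 ± 0.10 below the 116 h controls (limma adjusted p = 0.00776). These last 2 calls were lost with the gut, muscle and fat body lists as covariates, at 1.037 and -0.444 (limma adjusted p = 0.3585 and 0.1998).

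Hsp68 encodes a stress-inducible HSP70 protein. It was low throughout, between the 58.9 and 62.2 percentiles of all probe sets on each array, and no detection call came with the values. Its control arrays read 5.41, 5.44 and 5.62 (92 h) and 5.72, 5.52 and 5.65 (116 h). With avl-RNAi the arrays read 5.82, 5.76 and 5.97 (92 h), 5.92, 5.56 and 5.64 (116 h) and 5.66, 5.53 and 5.83 (168 h). The 92 h avl-RNAi arrays lay above all 3 of the 92 h controls, while the groups of every other comparison overlapped.

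None of the 8 comparisons called Hsp68. Its difference at 92 h was 0.36 ± 0.10 (limma adjusted p = 0.071, 95% interval 0.138 to 0.584). It was called there without avl-RNAi 116 h replicate 1, which is in no compared group but enters the shared estimate of spread (limma adjusted p = 0.03441), and with each array centred on its median (limma adjusted p = 0.0475). At 116 h the difference was 0.081 ± 0.10 (limma adjusted p = 0.628, 95% interval -0.142 to 0.304). In the other 6 comparisons it lay between -0.28 and 0.22, with limma adjusted p between 0.126 and 0.862.

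stv encodes starvin, a BAG-domain partner of HSP70 that acts in the turnover of damaged proteins and is needed in fly muscle. Its control arrays read 8.57, 8.51 and 8.62 (92 h) and 8.05, 7.95 and 7.83 (116 h). With avl-RNAi the arrays read 8.53, 8.44 and 8.59 (92 h), 9.19, 9.09 and 9.1 (116 h) and 8.58, 8.59 and 8.58 (168 h). The 116 h groups stood at opposite ends, avl-RNAi above and control below all other arrays. The means of the other 3 groups were 8.59, 8.57 and 8.52.

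At 92 h the stv difference was -0.047 ± 0.059 and was not called (limma adjusted p = 0.772, 95% interval -0.175 to 0.0806). At 116 h stv was 1.19 ± 0.059 higher in avl-RNAi discs, or 2.28-fold (limma adjusted p = 5.47e-09), and 255 genes had a higher difference. The change between ages was 1.23 ± 0.084 (limma adjusted p = 3.28e-07). Opposite movements made it up: stv fell by 0.63 ± 0.059 in control discs from 92 to 116 h (limma adjusted p = 4.15e-06) and rose by 0.61 ± 0.059 in avl-RNAi discs (limma adjusted p = 3.8e-06). It then fell by 0.54 ± 0.059 in avl-RNAi discs to 168 h (limma adjusted p = 1.86e-05), and was 0.64 ± 0.059 above the 116 h controls (limma adjusted p = 3.29e-06). At 116 h, avl-RNAi discs were also above the younger controls, by 0.56 ± 0.059 (limma adjusted p = 6.52e-06).

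Disc markers moved with Hsp26 and Hsp27 in part. Of 14 disc genes 11 fell in avl-RNAi discs at 116 h, where 19.1% of all genes fell. With age 9 rose in control discs, and 8 rose from 116 to 168 h, where 13.2% and 15.5% of all genes rose. From 92 to 116 h in avl-RNAi discs 5 fell and 1 rose, where 20.6% of all genes fell. In 116 h avl-RNAi discs 6 were lower and 1 higher than in the younger controls, where 20.5% were lower. Hsp26 was lower in both comparisons, and Hsp27 was called in neither. The mean of 6 salivary glue genes was 4.71 and 6.65 in the younger and older controls and 4.49, 5.81 and 5.2 over the 3 ages with avl-RNAi. Their part in the small heat shock differences was not tested. Muscle transcripts moved with stv in part. Of the 9 muscle genes 8 rose in avl-RNAi discs at 116 h, where 12.6% of all genes rose. All 9 fell with age in control discs, and 7 fell from 116 to 168 h, where 13.8% and 11.5% of all genes fell. From 92 to 116 h in avl-RNAi discs, 7 of the 9 fell while stv rose. Against the 116 h controls, 168 h avl-RNAi discs had 6 lower and 2 higher, where 13.7% of all genes were lower. In 116 h avl-RNAi discs 2 muscle genes were lower and 0 higher than in the younger controls. In both of these comparisons stv was higher. With the gut, muscle and fat body means as covariates the stv difference at 116 h was 1.005 (limma adjusted p = 0.0002133), and those of Hsp26 and Hsp27 were -2.708 and -1.481 (limma adjusted p = 1.335e-05 and 0.001225). The stv falls with age in control discs and from 116 to 168 h were no longer called with these covariates, at -0.4141 and -0.2181 (limma adjusted p = 0.1081 and 0.7637). Without the 2 control arrays whose gut values stood apart, the 116 h differences were -2.688 for Hsp26, -1.451 for Hsp27 and 1.19 for stv.

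**Figure D2:**
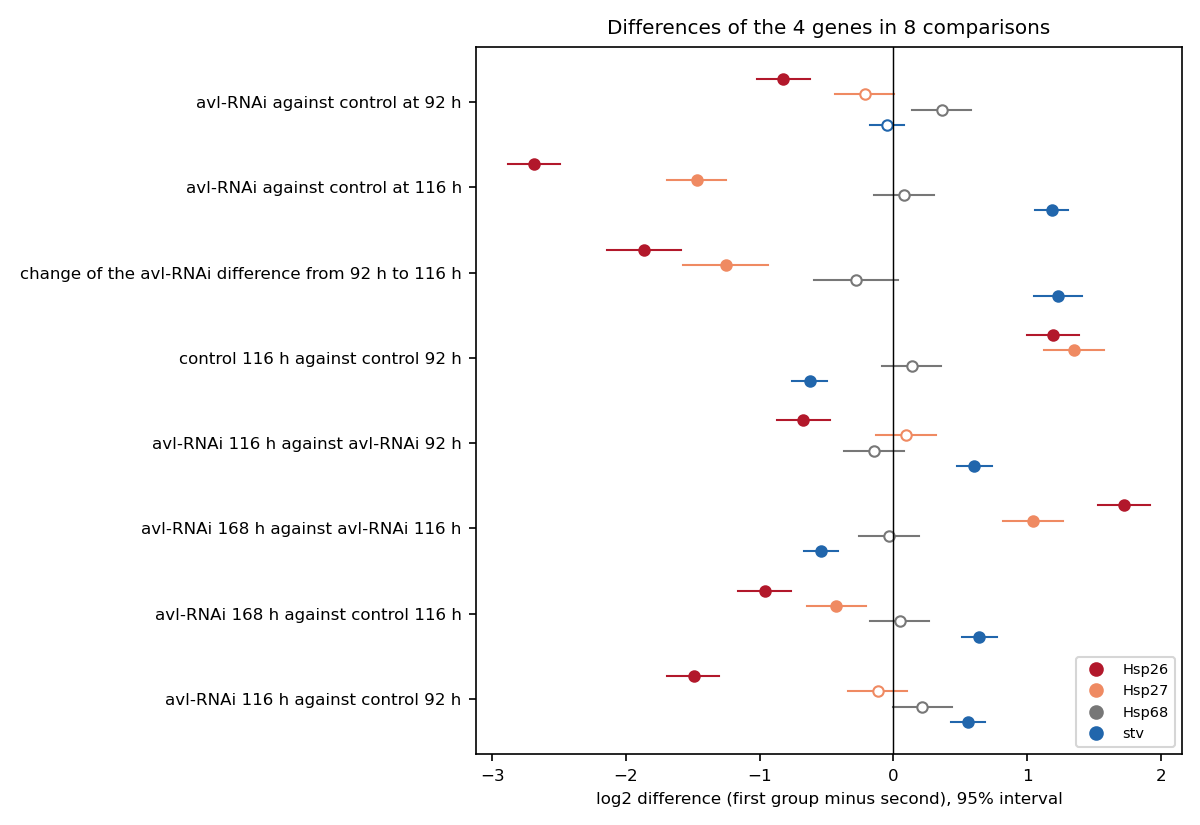
Log2 difference of Hsp26, Hsp27, Hsp68 and stv in each of the 8 comparisons, with the 95% interval as line and filled points for differences called at adjusted p under 0.05. Hsp26 lay farthest from 0 at 116 h, at -2.69, where stv was at 1.19; Hsp68 had no filled point.

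The counts over the 4 genes stood as follows against all genes. At 92 h 1 of 4 was called, a fall, where 4.48% of all genes were called, 2.44% higher and 2.04% lower. At 116 h 1 rose and 2 fell, against 31.7% of all genes called, and the median difference was -0.694 beside -0.0171 for all genes. For the change between ages 1 was positive and 2 negative, against 18.2% of all genes, 7.62% positive and 10.5% negative. With age 2 rose and 1 fell in control discs, against 27.0% (13.2% up and 13.8% down). In avl-RNAi discs 1 rose and 1 fell over these hours, against 35.4% (14.8% up and 20.6% down). Later in avl-RNAi discs, 2 rose and 1 fell from 116 to 168 h, against 27.0% (15.5% up and 11.5% down). Against the 116 h controls, 168 h avl-RNAi discs had 1 higher and 2 lower, beside 25.6% of all genes (12.0% higher and 13.7% lower). Against the 92 h controls, 116 h avl-RNAi discs had 1 higher and 1 lower, beside 35.6% (15.1% higher and 20.5% lower). Several of these comparisons share arrays, so their counts are not separate observations.

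Hsp26 and Hsp27 are neighbours in the genome. In the Release 6 annotation, 9 genes run from Hsp67Bc to Hsp27 and 3 of these had a probe set of their own. The third, CG4461, another small heat shock gene of the cluster, lay between 4.68 and 5.08 on all 15 arrays. Its difference at 116 h was -0.0023 ± 0.085 (limma adjusted p = 0.989). These values are close to the array medians, and no detection call came with them.

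The 2 probe sets shared by Hsp22 and CG4456, its neighbour in the cluster, did not run alike. They were tested among all 18952 probe sets. On control arrays the first read 5.13, 5.03 and 4.87 (92 h) and 5.44, 5.59 and 5.58 (116 h). With avl-RNAi it read 5.02, 4.65 and 4.85 (92 h), 5.34, 4.6 and 5.07 (116 h) and 7.02, 6.96 and 6.86 (168 h). The 168 h arrays stood above all others. The rise from 116 to 168 h was 1.94 ± 0.15 (limma adjusted p = 5.3e-07), and the level was 1.40 ± 0.15 above the 116 h controls (limma adjusted p = 1.01e-05), where 18.9% of probe sets were called. At 116 h this probe set was 0.54 ± 0.15 lower in avl-RNAi discs (limma adjusted p = 0.0145), where 23.6% were called. It rose by 0.53 ± 0.15 with age in control discs (limma adjusted p = 0.0195), where 19.7% were called.

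The second probe set had a mean of 5.25 ± 0.15 in the 92 h controls and 5.0 ± 0.086 in the 116 h controls (SD, n = 3). Its mean in avl-RNAi discs was 5.67 ± 0.12 at 92 h, 4.91 ± 0.13 at 116 h and 5.26 ± 0.15 at 168 h (SD, n = 3). It was 0.42 ± 0.098 higher in avl-RNAi discs at 92 h (limma adjusted p = 0.029), where 3.39% of probe sets were called. In avl-RNAi discs it then fell by 0.76 ± 0.098 from 92 to 116 h (limma adjusted p = 4.39e-05), where 26.2% were called. The 116 h avl-RNAi discs were 0.34 ± 0.098 below the younger controls (limma adjusted p = 0.0191), where 26.4% were called. From 116 to 168 h this probe set rose by 0.35 ± 0.098 (limma adjusted p = 0.0214), where 20.5% were called. Its 168 h level was not called against the 116 h controls, at 0.25 ± 0.098 (limma adjusted p = 0.0938). The change of its difference between ages was -0.52 ± 0.14 (limma adjusted p = 0.0237), where 12.8% were called. The first probe set was at -0.17 ± 0.15 at 92 h (limma adjusted p = 0.657), and only the rise from 116 to 168 h was called for both. Which of the 2 genes gave the signal cannot be told apart.

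Copies of Hsp70, the main heat-inducible chaperone of the fly, shared 5 probe sets, which lay between 3.65 and 5.26 on all arrays. None was called between avl-RNAi and control discs at 116 h. One, also annotated to CG31343, was 0.51 ± 0.10 higher in avl-RNAi discs at 92 h (limma adjusted p = 0.0133), where 3.39% were called. The same probe set then fell by 0.49 ± 0.10 from 92 to 116 h (limma adjusted p = 0.00248), where 26.2% were called. It fell by a further 0.33 ± 0.10 to 168 h (limma adjusted p = 0.0345), where 20.5% were called. No other of the 5 was called in any comparison.

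Beyond these genes, 66 chaperone and cochaperone genes were listed by family and 56 had a probe set of their own. At 92 h 1 rose and 1 fell, where 2.44% of all genes rose and 2.04% fell. At 116 h 6 rose and 20 fell in avl-RNAi discs, with a median of -0.0437, where 12.6% of all genes rose and 19.1% fell around a median of -0.0171. With the tissue covariates 2 rose and 6 fell, where 1119 of all 11982 genes were called. From 92 to 116 h 6 rose and 22 fell in control discs, where 13.2% of all genes rose and 13.8% fell. In avl-RNAi discs 4 rose and 35 fell, where 14.8% of all genes rose and 20.6% fell. With the covariates 0 rose and 4 fell in control discs, where 439 of all genes were called. In avl-RNAi discs 2 rose and 22 fell with them, where 2131 of all genes were called. From 116 to 168 h 14 rose and 6 fell, where 15.5% of all genes rose and 11.5% fell. None of the 56 was called with the covariates, where only 63 of all 11982 genes were called. The 6 rises with age in control discs became 2 without control 92 h replicate 3, and 3 without the 2 control arrays with unusual gut values or without control 92 h replicate 1 or control 116 h replicate 3. The 6 later falls became 3 without avl-RNAi 168 h replicate 1 or replicate 2.

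**Figure D3:**
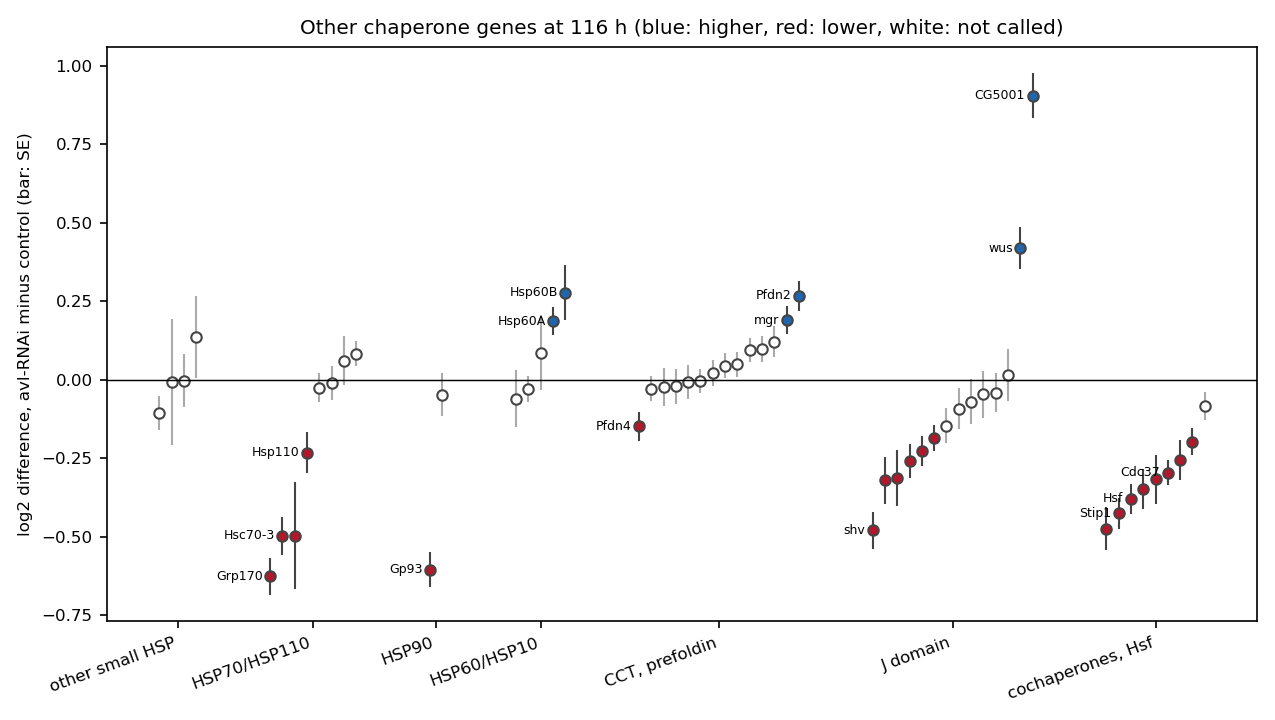
Log2 difference between avl-RNAi and control discs at 116 h, with its standard error, for the 56 measured chaperone and cochaperone genes in 7 family lists; filled points were called. The cochaperone and Hsf list holds 8 lower called points of 9, where 19.1% of all genes fell. The J-domain gene CG5001, at 0.91, is the highest point.

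Of 6 other small heat shock genes listed, 4 were measured and none was called at 116 h, where 31.7% of all genes were called. CG13133 was at -0.11 ± 0.054 and CG7409 at 0.14 ± 0.13 (limma adjusted p = 0.163 and 0.503). On all arrays CG13133 lay between 4.4 and 4.69, CG4461 between 4.68 and 5.08, and CG7409 between 4.89 and 5.66. These levels are low, and no detection call came with them. Brighter was l(2)efl, a small heat shock gene related to alpha-B crystallin, at -0.0072 ± 0.20 (limma adjusted p = 0.987). Later l(2)efl fell by 1.72 ± 0.20 from 116 to 168 h (limma adjusted p = 3.35e-05), as 7 of the 9 muscle genes did, and its 3 probe sets ranged from -1.72 to -0.0504. With the gut, muscle and fat body means as covariates the difference was -0.0054 and not called (limma adjusted p = 0.9983). These covariates raised the median standard error of that comparison from 0.0737 to 0.219. The part of muscle RNA alone in that fall was not tested.

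Transcripts of Grp170, Hsc70-3 and Gp93, chaperones of the endoplasmic reticulum, fell in avl-RNAi discs at 116 h. Of 8 measured HSP70 and HSP110 genes, 4 fell and none rose, with a median of -0.129, where 19.1% of all genes fell. Those 4 were Grp170, Hsc70-3, Hsp110 and Hsc70-2, the last at -0.50 ± 0.17 (limma adjusted p = 0.0396) and named after its value was seen. Grp170, an HSP110-type chaperone of the endoplasmic reticulum, read 10.82, 10.77 and 10.95 in control and 10.11, 10.3 and 10.25 in avl-RNAi discs at 116 h. It fell by 0.63 ± 0.058 (limma adjusted p = 2.1e-06). Hsc70-3, the fly BiP, which is the HSP70 of that compartment, fell by 0.50 ± 0.061 (limma adjusted p = 2.9e-05). Gp93, its HSP90, fell by 0.61 ± 0.056 (limma adjusted p = 2.1e-06). Grp170, Hsc70-3 and Gp93 rose by 0.64 ± 0.058, 0.65 ± 0.061 and 0.55 ± 0.056 from 116 to 168 h (limma adjusted p = 3.55e-06, 4.98e-06 and 1.01e-05). With the covariates none of these rises was called, at 0.34, 0.50 and 0.20 (limma adjusted p = 0.5869, 0.4755 and 0.7405). None of the 3 was called between 168 h avl-RNAi and 116 h control discs (limma adjusted p = 0.925, 0.0947 and 0.542).

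Hsp110, a nucleotide exchange factor of HSP70, was 0.23 ± 0.065 lower at 116 h (limma adjusted p = 0.0135). That call was lost with the covariates (limma adjusted p = 0.3905), without the 2 control arrays with unusual gut values (limma adjusted p = 0.07317), and without avl-RNAi 116 h replicate 1 or control 116 h replicate 2 alone (limma adjusted p = 0.06037 and 0.05529). Trap1, the mitochondrial HSP90, was at -0.047 ± 0.068 (limma adjusted p = 0.672). Hsp60A, the mitochondrial chaperonin, was 0.19 ± 0.045 higher and its paralogue Hsp60B 0.28 ± 0.089 higher (limma adjusted p = 0.00542 and 0.0288). They were the 2 risers among 5 genes of that family, where 12.6% of all genes rose. Hsp60B lay between 4.52 and 5.14 on all arrays, close to the array medians. Its call was lost with the covariates (limma adjusted p = 0.29) and without those control arrays, at 0.15 (limma adjusted p = 0.1307). It was also lost without avl-RNAi 116 h replicate 1 or control 116 h replicate 2 alone (limma adjusted p = 0.1126 and 0.1145). Hsp60C was at 0.086 ± 0.12 (limma adjusted p = 0.649).

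The cytosolic chaperonin CCT and its partner prefoldin, fold actin and tubulin. All 14 genes were measured. In control discs 11 fell and none rose from 92 to 116 h, with a median of -0.207, where 13.8% of all genes fell. In avl-RNAi discs 11 fell and none rose, with a median of -0.178, where 20.6% of all genes fell. With the covariates 4 of the 56 measured chaperone genes fell in control discs, where 439 of all 11982 genes were called. In avl-RNAi discs 22 of the 56 fell with them, where 2131 of all genes were called. These covariate counts are not split by family. At 116 h 2 rose and 1 fell between the genotypes, where 12.6% of all genes rose and 19.1% fell. The risers were the prefoldin genes Pfdn2, at 0.27 ± 0.047, and mgr, at 0.19 ± 0.044 (limma adjusted p = 0.00064 and 0.00428). Pfdn4 was 0.15 ± 0.045 lower (limma adjusted p = 0.0216). With the covariates none of the 3 was called (limma adjusted p = 0.09725, 0.125 and 0.534 in that order). Pfdn4 was not called without the 2 control arrays either (limma adjusted p = 0.08241), nor without avl-RNAi 116 h replicate 1 or replicate 2 or control 116 h replicate 1 or replicate 2 alone (limma adjusted p from 0.05159 to 0.07061).

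J-domain genes went both ways at 116 h, with 2 higher and 6 lower of 14 measured. Of all genes, 12.6% were higher and 19.1% lower. CG5001 read 8.71, 8.59 and 8.77 in control and 9.73, 9.59 and 9.46 in avl-RNAi discs at 116 h. It rose by 0.91 ± 0.072 (limma adjusted p = 4.88e-07), the difference of largest size among the 56. wus rose by 0.42 ± 0.068 (limma adjusted p = 0.000289), and was not called with the covariates, at 0.37 (limma adjusted p = 0.1229). shv fell by 0.48 ± 0.060 (limma adjusted p = 3.07e-05), where the covariates gave -0.39 and no call (limma adjusted p = 0.05951).

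Among 9 measured cochaperone genes, with Hsf among them, 8 fell and none rose at 116 h, where 19.1% of all genes fell. Their median was -0.317. All 9 were lower in 116 h avl-RNAi discs than in the younger controls, where 20.5% of all genes were lower. Stip1, the fly Hop, which joins HSP70 to HSP90, read 12.07, 12.06 and 12.04 in control and 11.52, 11.73 and 11.63 in avl-RNAi discs at 116 h. It fell by 0.43 ± 0.049 (limma adjusted p = 1.75e-05). Cdc37, which brings kinases to HSP90, fell by 0.30 ± 0.040 (limma adjusted p = 5.89e-05). With the covariates Cdc37 was at -0.22 and not called (limma adjusted p = 0.1133).

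Hsf, the transcription factor of the heat shock response, read 9.84, 9.82 and 9.77 in control and 9.43, 9.34 and 9.53 in avl-RNAi discs at 116 h. All 3 avl-RNAi arrays lay below the 3 control arrays, and Hsf fell by 0.38 ± 0.048 (limma adjusted p = 3.9e-05). At 92 h it was at 0.018 ± 0.048 (limma adjusted p = 0.908). In avl-RNAi discs Hsf fell by 0.25 ± 0.048 from 92 to 116 h and rose by 0.24 ± 0.048 to 168 h (limma adjusted p = 0.00111 and 0.00201), and neither was called with the covariates (limma adjusted p = 0.2489 and 0.558). Its rise with age in control discs was 0.15 ± 0.048 (limma adjusted p = 0.0342). That call was lost with the covariates (limma adjusted p = 0.2715), without the 2 control arrays (limma adjusted p = 0.1145), and without any 1 of the control arrays but control 116 h replicate 3 (limma adjusted p from 0.05476 to 0.1063). These are levels of its transcript, and the activity of the protein was not measured.

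**Figure D4:**
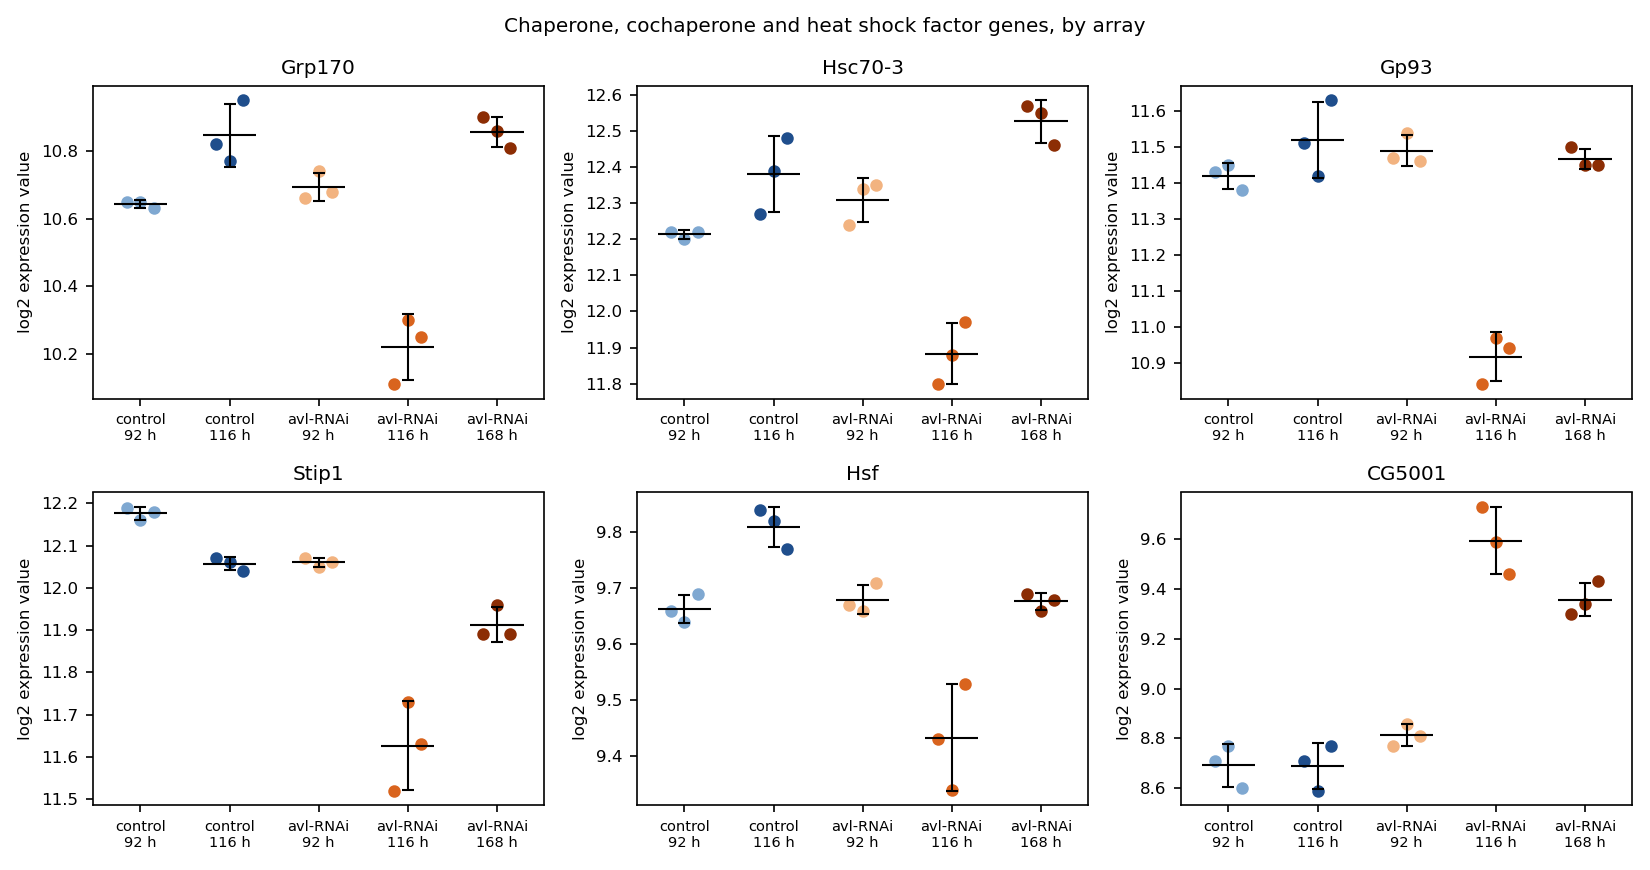
Log2 expression value on each array (points, 3 per group) with group mean and SD for Grp170, Hsc70-3, Gp93, Stip1, Hsf and CG5001; the axes differ between panels and do not start at 0. The first 5 genes were lowest in avl-RNAi discs at 116 h, where CG5001 was highest, with a mean of 9.59.

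Ecdysone response genes were set beside the small heat shock genes, since the hormone is known to induce several of these. Of 26 listed, 21 were measured, and 3 rose and 6 fell in avl-RNAi discs at 116 h, with a median of -0.064. Of all genes, 12.6% rose and 19.1% fell there. From 92 to 116 h 8 rose and 2 fell in control discs, where 13.2% of all genes rose. In avl-RNAi discs 10 rose and 2 fell over these hours, where 14.8% of all genes rose. The mean of the 21 was 7.07 and 7.98 in the younger and older controls. It was 7.14, 7.51 and 8.23 over the 3 ages with avl-RNAi. ImpE3, a secreted protein gene induced by ecdysone in discs, fell by 3.56 ± 0.18 (limma adjusted p = 7.01e-09). Eip78C, a nuclear receptor gene, fell by 2.27 ± 0.11 (limma adjusted p = 4.02e-09). Both had risen with age in control discs, by 3.88 ± 0.18 and 2.26 ± 0.11 (limma adjusted p = 6.51e-09 and 9.42e-09). In avl-RNAi discs both rose from 116 to 168 h, by 2.99 ± 0.18 and 1.45 ± 0.11 (limma adjusted p = 1.03e-07 and 6.63e-07), and neither rise was called with the covariates (limma adjusted p = 0.1309 and 0.296). ftz-f1, a nuclear receptor gene that ecdysone represses until the hormone declines, ran the other way and was 2.05 ± 0.11 higher at 116 h (limma adjusted p = 1.38e-08). Whether hormone response and small heat shock levels are linked was not tested.

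The genes most like each of the 4 were found by the root mean square difference between centred log2 values over the 15 arrays. For Hsp26 they were kn, the transcription factor gene knot, at 0.175, and Fkbp14, a prolyl isomerase gene of the endoplasmic reticulum, at 0.318, where Hsp26 itself had a root mean square of 0.924. For Hsp27 they were the neprilysin peptidase genes Nep1, at 0.135, and Nep2, at 0.171, beside 0.64 for Hsp27 itself. The distance between Hsp26 and Hsp27 was 0.489, larger than any of these. For stv they were nahoda, at 0.121, and cher, the filamin gene, at 0.132, beside 0.38. For Hsp68 they were Tsp42A, at 0.105, and Ir52a, at 0.116, beside 0.162, so the likeness there is between genes that hardly varied.

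**Figure D5:**
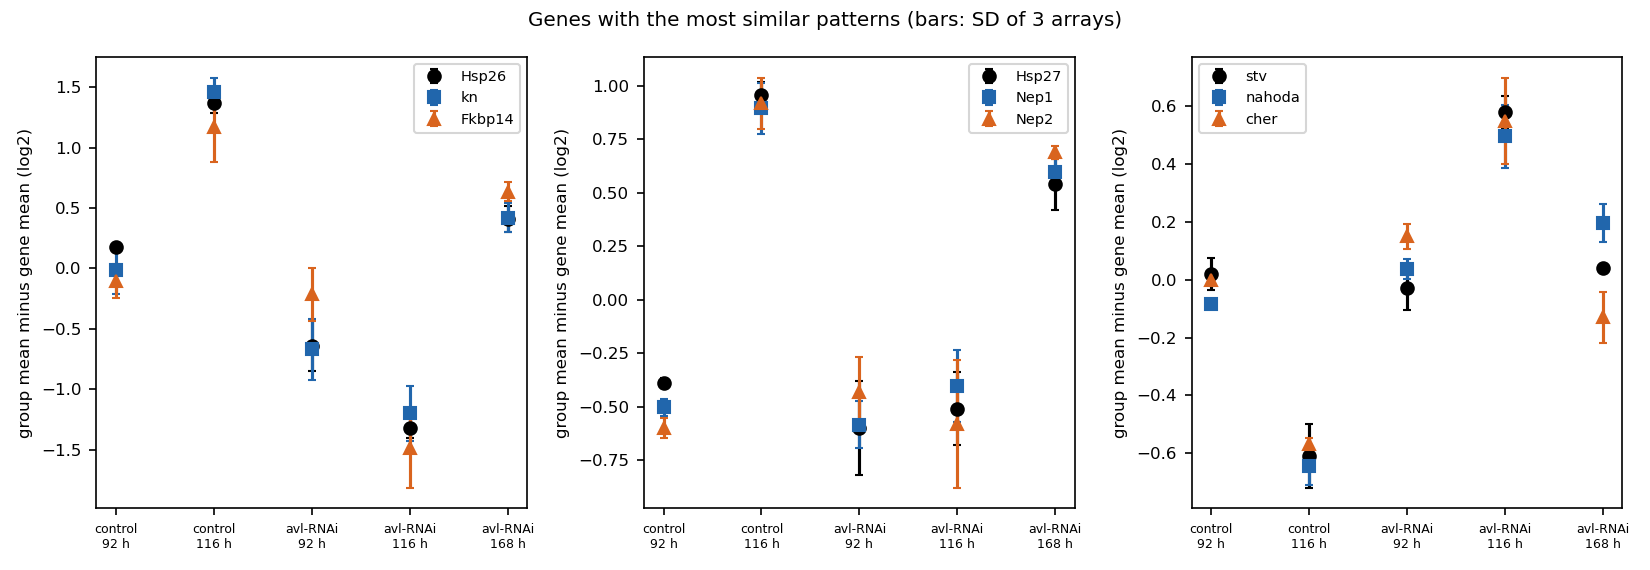
Group means of log2 values minus the mean over the 5 groups, with the SD of 3 arrays as bars, for Hsp26, Hsp27 and stv (black circles) and the 2 genes most like each. kn, with a root mean square difference of 0.175 from Hsp26, and Nep1, with 0.135 from Hsp27, have points beside theirs in every group.

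These genes were chosen for their likeness over the same 15 arrays, so their differences are descriptions with no test. kn was 2.66 ± 0.14 lower in avl-RNAi discs at 116 h, 0.66 ± 0.14 lower at 92 h, and 1.62 ± 0.14 higher at 168 h than at 116 h. Nep1 was 1.30 ± 0.085 lower at 116 h, and cher was 1.12 ± 0.066 higher.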

How the data were processed

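Total RNA of wing discs, 200 ng per sample, was labelled with biotin and hybridized to Affymetrix arrays, per the labels. The deposited values are on a log2 scale (inferred from their range) and were already normalized between arrays by the authors, since all array means agree. Background correction and normalization are not given in the sources used here, and Partek and limma are named without role or version, per the submitters' processing notes. Values were used as deposited. A gene was its single-symbol probe set with the highest mean over the 15 arrays. The platform annotation gave 1 symbol to 13647 of 18952 probe sets, several to 402 and none to 4903.

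limma 3.58.1 in R 4.3.3 (lmFit, eBayes) was fitted over all 15 arrays and 5 group means for 11982 genes, 2-sided, with Benjamini-Hochberg adjustment per comparison, after being tested on simulated data. Shared-symbol probe sets were tested in a fit of all probe sets. The genes, lists and rules were chosen with earlier results of these data known. Of each list, up to 3 genes with the smallest adjusted p at 116 h were named, and Hsf always. For each of the 4 genes, the 2 most similar genes were named, leaving out those known only by a number. The labels say that 3 separate samples were collected per group but not from which animals, so p-values measure the spread between these samples. Arrays give no read depth, and their number limits the precision. Replicate numbers were not taken to pair samples. Of 30 correlations between same-numbered arrays, 9 exceeded 0.1 (range -0.41 to 0.50). Alternatives were other fits, normalizations, filters and thresholds, tissue covariates, and leaving out arrays. No reference sequence was used here.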

Additional observations from a re-analysis of the deposited data

Results flagged for a closer look

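Of the 4 genes, 3 had a difference between avl-RNAi and control discs that changed from 92 to 116 h by the interaction test. That test called 18.2% of all genes. The change was -1.87 for Hsp26, -1.25 for Hsp27 and 1.23 for stv on the log2 scale, with limma adjusted p of 3.58e-07, 5.17e-05 and 3.28e-07. A signal also appeared outside the gene-level values. One of the 2 probe sets annotated jointly to Hsp22 and CG4456 was 1.4 higher in avl-RNAi discs at 168 h than in control discs at 116 h, with all 3 arrays above all controls. The other joint probe set did not pass the test there, at 0.25 ± 0.098.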

How the results depend on the processing

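The 4 genes had 32 differences, 20 of them called, and 856 values under 27 alternatives. No called difference changed sign, 4 calls were lost, all with the gut, muscle and fat body covariates and given with the results, and 3 were gained, all for Hsp68 at 92 h. Over the alternatives the 116 h difference ranged from -2.728 to -2.641 for Hsp26, from -1.537 to -1.377 for Hsp27 and from 1.005 to 1.24 for stv. Uncalled differences changed sign as follows, and the cause was not tested. Hsp68 at 168 h against control 116 h was -0.01017 with quantile normalization, -0.007038 without the 2 control arrays with unusual gut values (the same without control 116 h replicate 2) and -0.031 without avl-RNAi 168 h replicate 3. From 116 to 168 h Hsp68 was 0.004068 with median centring, 0.09534 with the covariates, 0.07418 without avl-RNAi 116 h replicate 1 and 0.03812 without avl-RNAi 168 h replicate 2. Leaving out 1 array gave it -0.112 at the lowest, and the former 168 h comparison 0.1191 at the highest. At 116 h it was -0.05813 with the covariates and -0.02579 to 0.1559 with 1 array left out (the lowest without avl-RNAi 116 h replicate 1). Hsp27 from 92 to 116 h in avl-RNAi discs was -0.009912 with the covariates and -0.02427 to 0.1945 with 1 array left out (the lowest without avl-RNAi 92 h replicate 1). With the covariates the called rise of Grp170 in control discs was -0.02664 and the called fall of l(2)efl from 92 to 116 h was 0.07771. No paired design was taken, and with the replicate number as a block the genes called at 92 h were 488 in place of 537 and at 116 h 3726 in place of 3794. The block brought Hsp68 in at 92 h (2 of the 4 called, limma adjusted p = 0.03738), as did median centring (2 called, limma adjusted p = 0.0475), and it changed no other call of the 4 genes. Of 60 sets of an array and another group, 26 had the highest correlation with the same number. All genes called at 92 h numbered 345 with only the arrays compared, 225 at adjusted p under 0.01, 177 with the covariates and 257 without the 2 control arrays, and leaving out 1 array gave 288 to 607, with 1 to 2 of the 4 genes called. Adjusted p under 0.01 gave 1231 for the change between ages, 2091 from 116 to 168 h and 2041 for 168 h against control 116 h. With the covariates, called genes numbered 1119 at 116 h, 1393 for the change between ages, 439 for ageing in control discs, 2131 in avl-RNAi discs, 63 from 116 to 168 h (1 of the 4 genes) and 1008 for 168 h against control 116 h. The covariates also raised the median standard error, from 0.0737 to 0.134 at 116 h and to 0.219 from 116 to 168 h. Hsp68 had no value with the lowest 50% of genes left out. Among 139 called differences of the other named genes, 3738 alternative values held 230 lost calls, 61 of them with the covariates.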
